A study of Mus musculus with 4 samples.

Results

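The insulin-like growth factor system was followed through cortical cells of Tg2576 and wild-type mice by 9 genes, taken from the deposited tables by symbol, of 27487 genes listed in all. They comprise the ligands Igf1 and Igf2, the receptors Igf1r and Igf2r, and the binding proteins Igfbp2, Igfbp3, Igfbp4, Igfbp5 and Igfbp7, and all 9 were found in the tables. Tg2576 mice overexpress human amyloid precursor protein with the Swedish mutation from a prion protein promoter and are a model of amyloid pathology in Alzheimer's disease. Heterozygous transgenic mice on a mixed B6;SJL background and their wild-type littermates, all 24 weeks old, were perfused with PBS, and the cortex was dissociated for Drop-seq, a droplet method that reads the 3' ends of transcripts and counts unique molecular identifiers (UMIs). The 4 groups were female wild-type, female Tg2576, male wild-type and male Tg2576 mice, and each group was 1 library made from the pooled cells of 9 mice. The spread between mice could therefore not be seen, and there was no replicate within a group.

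Insulin-like growth factors are secreted peptides that promote growth, survival and metabolism. Igf1r is the tyrosine kinase receptor through which both ligands signal, whereas Igf2r, also known as the cation-independent mannose 6-phosphate receptor, carries IGF2 and lysosomal enzymes to lysosomes. The binding proteins hold the ligands in extracellular fluid and set how much of them reaches the receptors, while IGFBP7 binds insulin-like growth factors only weakly and is best known from vessel walls. In the brain, the choroid plexus and the meninges are known sources of IGF2, and microglia, macrophages and some neurons are known sources of IGF1. Igf2 is imprinted, and its transcripts start at several promoters.

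Total UMIs per library lay between 1926857 and 2294296, and 1010 to 1532 cells per library were kept, with a median of 909 to 1331.5 UMIs per cell. Cells were grouped by clustering without the 9 genes, and microglia, astrocytes and the like stand here for clusters that resemble these types. Microglia (1860 cells), endothelial cells (961), astrocytes (921) and oligodendrocytes (353) were the largest groups. Mural cells (163), neuroblasts or progenitors (112), choroid plexus cells (109), OPCs (102), neurons (95), macrophages (33) and ependymal cells (25) were fewer. Neurons were thus thinly covered, and choroid plexus and ependymal cells were present although the labels name cortex only. A cluster of 52 cells led by Npy and Fabp7, which met no marker list, and one of 49 cells led by Ms4a4b and H2-Ab1, which had 5 of 8 fibroblast markers beside 4 markers of T or NK cells, stayed unnamed. The larger microglia cluster (1187 cells) was led by the immune response genes Ccl4, Tnf and Il1b and the smaller (673 cells) by Gm16228 and P2ry12. The macrophage cluster was also led by the neutrophil genes S100a8 and S100a9. Hemoglobin genes such as Hbb-bs were among the leading genes of the larger endothelial cluster. Of 1144 endothelial Hbb-bs UMIs in the female wild-type library, however, 1054 were in 1 cell, and the other libraries had 0, 1 and 3. Among kept cells, 6 barcode sequences were found in more than 1 library. Levels are UMIs per 1000000 UMIs of a cell type in a library (CPM), and their intervals, like those of shares and ratios, cover counting error only.

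The 9 genes split into a vascular, a choroid plexus and several rarer patterns. Igf1r and Igfbp7 were held mainly by cells of the vessel wall, with 73.5% of the kept Igf1r UMIs and 69.1% of the kept Igfbp7 UMIs in endothelial cells. Igf2 and Igfbp2 reached their highest levels in choroid plexus cells. Igfbp2 was also counted in astrocytes, which held 50.9% of its UMIs. Most Igf1 UMIs and part of those of Igfbp4 and Igfbp5 were found in the small cluster led by Npy and Fabp7, and Igf2r and Igfbp3 had only 61 and 42 UMIs in all kept cells. These shares depend on how many cells of each type were captured as well as on the level per cell.

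**Figure D1:**
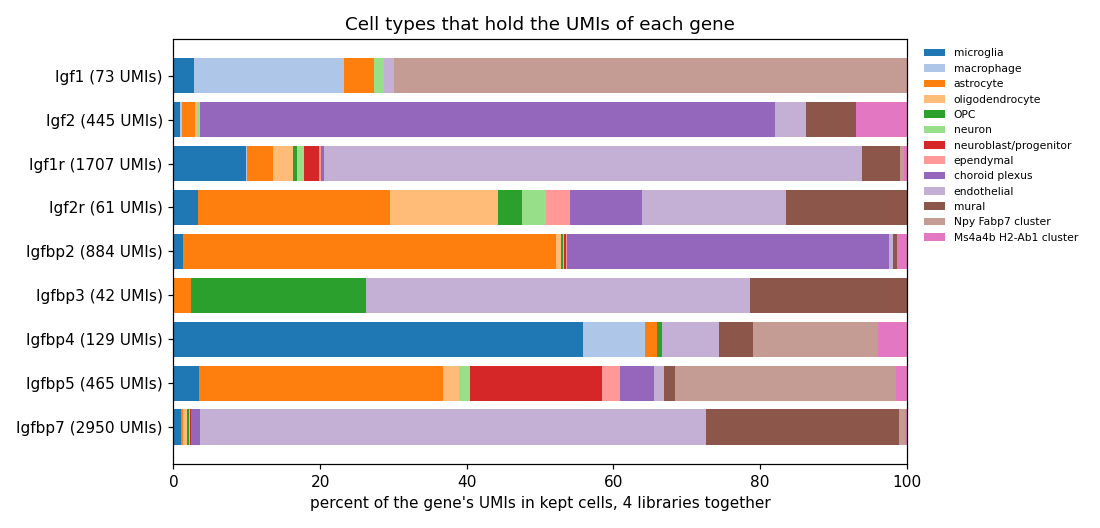
Percent of each gene's UMIs in kept cells of the 4 libraries together (x axis) that were counted in each cell type (colours), with the total UMIs of the gene beside its name. Endothelial cells hold 73.5% of the Igf1r and 69.1% of the Igfbp7 UMIs, choroid plexus cells 78.4% of the Igf2 UMIs, and the cluster led by Npy and Fabp7 69.9% of the Igf1 UMIs.

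The start regions of 4 members are shown because these genes form the vascular and the choroid plexus pair. RefSeq on GRCm38.p6 gave 9 of 9 members a window of 250 bases before the first listed transcription start. Each sequence is written 5' to 3' on the strand of the gene, in lower case, with GC boxes (GGGCGG or, on the other strand, CCGCCC) in capitals.
Igf1r, chr7:67952007-67952256, plus strand: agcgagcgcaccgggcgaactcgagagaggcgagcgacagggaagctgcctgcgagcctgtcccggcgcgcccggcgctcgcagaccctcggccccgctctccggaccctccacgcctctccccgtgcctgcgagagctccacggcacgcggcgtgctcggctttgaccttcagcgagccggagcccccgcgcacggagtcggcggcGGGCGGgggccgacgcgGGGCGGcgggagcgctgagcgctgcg
Igfbp7, chr5:77408046-77408295, minus strand: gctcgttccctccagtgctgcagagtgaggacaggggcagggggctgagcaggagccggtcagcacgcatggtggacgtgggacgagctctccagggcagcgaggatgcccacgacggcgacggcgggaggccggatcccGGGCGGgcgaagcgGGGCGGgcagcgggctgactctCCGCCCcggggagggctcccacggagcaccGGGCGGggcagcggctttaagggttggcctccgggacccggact
Igf2, chr7:142666817-142667066, minus strand, first of 4 listed starts: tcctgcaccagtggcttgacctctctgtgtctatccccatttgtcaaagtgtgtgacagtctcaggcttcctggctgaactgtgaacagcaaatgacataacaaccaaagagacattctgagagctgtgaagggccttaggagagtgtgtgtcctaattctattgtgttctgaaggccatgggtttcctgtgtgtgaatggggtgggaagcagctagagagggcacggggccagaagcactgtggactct
Igfbp2, chr1:72824230-72824479, plus strand, first of 2 listed starts: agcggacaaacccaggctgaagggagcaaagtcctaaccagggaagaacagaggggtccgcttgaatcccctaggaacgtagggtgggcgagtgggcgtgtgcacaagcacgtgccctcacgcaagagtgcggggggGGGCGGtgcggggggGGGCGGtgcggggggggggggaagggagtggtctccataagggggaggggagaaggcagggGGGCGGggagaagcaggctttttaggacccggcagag
GC content was 77.6% for Igf1r, 74.0% for Igfbp7, 50.8% for Igf2 and 67.2% for Igfbp2, against a median of 52.0% over all 27025 windows. Searched on both strands, a GC box lay in the windows of 4 members (Igf1r, Igf2r, Igfbp2 and Igfbp7) and in 32.9% of all windows. A TATA box (TATAAA) lay in the window of 1 member, Igfbp4, and in 13.0% of all windows, and a CCAAT box (CCAAT) in that of 1 member, Igf1, and in 34.5% of all windows. No motif of the 3 overlaps another by its letters. These matches describe letters in the windows and do not bear on binding. The windows of Igf1, Igfbp3 and Igfbp4 lie inside the listed gene bodies, so they are not upstream of the whole gene. Igfbp2 and Igfbp5 are neighbours on chromosome 1, with 5590 bases between the gene bodies, and the levels below show that they were not highest in the same cell type.

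**Figure D2:**
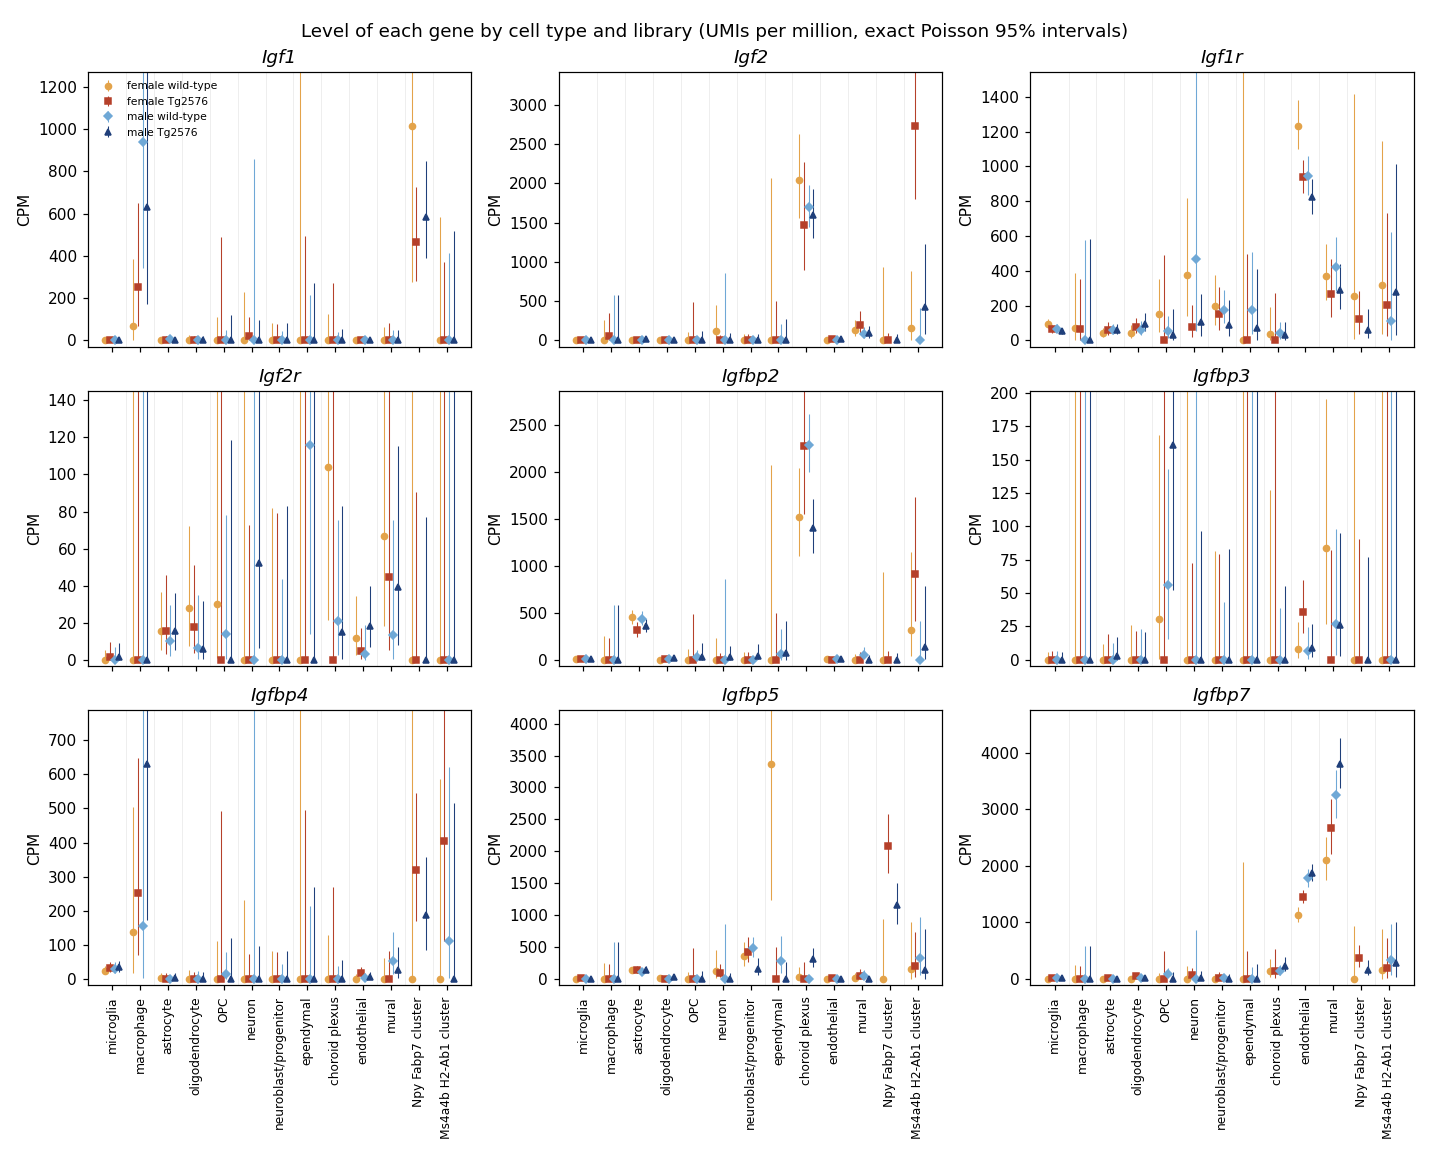
Level of each of the 9 genes (y axis, CPM) by cell type (x axis) and library (colours and symbols), with exact Poisson 95% intervals for counting error, some of which run past the top of a panel. In endothelial cells all 4 Igf1r points lie between 825 and 1235 CPM, and in choroid plexus cells all 4 Igf2 points lie between 1469 and 2041 CPM.

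Among the ligands, Igf1 was counted least. Kept cells held 5 and 9 Igf1 UMIs in the wild-type libraries (female, then male) and 25 and 34 in the Tg2576 libraries. Both Tg2576 libraries were thus above both wild-type libraries, and the difference lay in a single cell group. The cluster led by Npy and Fabp7 held 51 of the 73 UMIs, in 18 of its 52 cells, namely 4, 19 and 28 UMIs in the female wild-type, female Tg2576 and male Tg2576 libraries, while the male wild-type library had 0 cells of it. Its cells were 2, 21, 0 and 29 in the order female wild-type, female Tg2576, male wild-type and male Tg2576. As a level, Igf1 stood at 1017, 466 and 586 CPM in the 3 libraries that had such cells, and the highest of these values came from the 2 female wild-type cells. Whether the number of these cells belongs to the genotype or to the dissection of a library cannot be told apart with 1 pooled library per group.

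The identity of that cluster was not settled by the marker lists. It had 2 of 10 astrocyte markers and 2 of 12 mural markers at raised levels, and Mrc1, Aqp4, Pdgfra, Pdgfrb and Snap25 were at 0 UMIs in all of its cells. Besides Npy, a neuropeptide, and Fabp7, a fatty acid binding protein, it carried Frzb, a Wnt antagonist, at 662 to 1272 CPM. Igf1 and Igfbp5 were among its 10 leading genes, although neither had been used for clustering. Its share of cells moved with the limit on mitochondrial UMIs: at a limit of 10% it had 2, 3, 0 and 23 cells in the order of libraries above, and without a limit 5, 62, 0 and 35.

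Macrophages were the other cells with Igf1. They held 1, 4, 6 and 4 UMIs in 7, 11, 7 and 8 cells of the female wild-type, female Tg2576, male wild-type and male Tg2576 libraries, or 69.6, 253, 941 and 630 CPM. The 4 libraries differed widely and did not separate by genotype, and no library had more than 6 UMIs. In microglia, a cell type known as a source of IGF1, 2 UMIs were counted in 1860 cells (0.108% of cells), against 33.3% of macrophages with a UMI. Counts of 0 leave room for low levels, for example up to 4.47 CPM (3 UMIs) in female wild-type microglia. Igf1 passed the filter for the test in no cell type, so it was not tested.

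**Figure D3:**
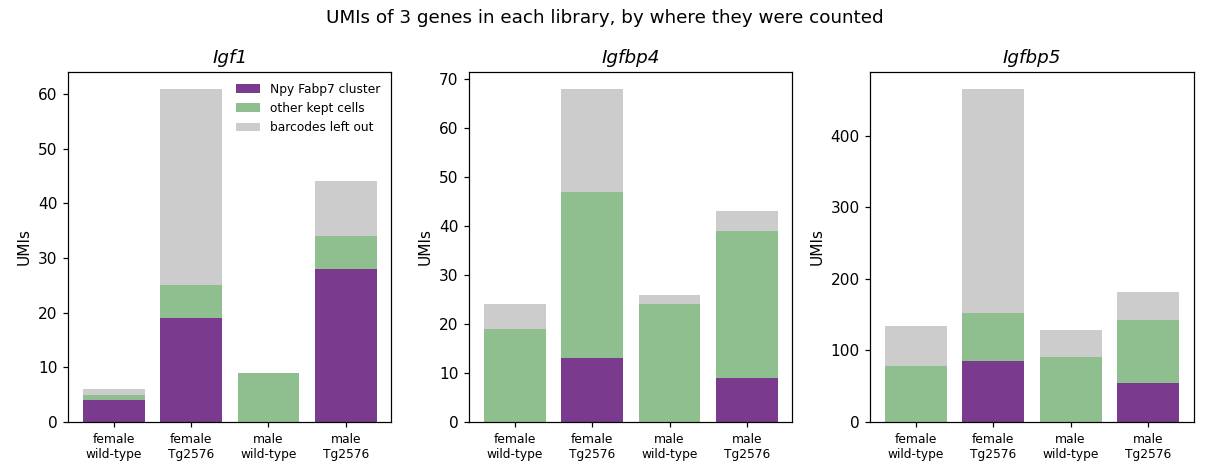
UMIs of Igf1, Igfbp4 and Igfbp5 (y axis) in each library (x axis), split into the cluster led by Npy and Fabp7, other kept cells, and barcodes that did not pass the limits on genes and mitochondrial share. The female Tg2576 library has 61 Igf1 UMIs over all its barcodes, of which 19 lie in the cluster, and the male wild-type library has 0 in the cluster.

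Igf2 was counted mainly in choroid plexus cells in these data. The choroid plexus and the mural cluster each also had 4 fibroblast markers at raised levels, and the part of fibroblasts in their Igf2 was not tested. Choroid plexus cells held 59, 20, 163 and 107 UMIs in the female wild-type, female Tg2576, male wild-type and male Tg2576 libraries, or 2041, 1469, 1702 and 1596 CPM. Their mean was 1702 ± 245 CPM (SD over the 4 libraries, which differ in sex and genotype), with a UMI in 72.5% of 109 cells against 0.215% of microglia, at cluster medians of 1197 and 921 to 1308 UMIs per cell. Both wild-type values lay above both Tg2576 values. The difference between Tg2576 and wild-type choroid plexus cells, -0.18 on the log2 scale (SE 0.39, adjusted p = 0.997, edgeR quasi-likelihood test), was not called, where 0.136% of the genes tested in this type were.

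Mural cells followed at a lower level, with 134, 200, 81.2 and 92.0 CPM in the same order of libraries. Their range did not overlap that of endothelial cells, which lay at 10.1 to 19.2 CPM. Mural cells carried 2.79 more on the log2 scale than endothelial cells (SE 0.48, adjusted p = 2.67e-07, edgeR), higher in 4 of 4 libraries. Ttr, the main transcript of choroid plexus cells, was also counted in other types, and the part of free RNA in their Igf2 was not tested. For every 1000 UMIs of Ttr, choroid plexus cells held 7.67 Igf2 UMIs, endothelial cells 34.5 and mural cells 64.1, and 371 of the 468 mural Ttr UMIs were in 1 cell of the male wild-type library.

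The cluster led by Ms4a4b and H2-Ab1, with fibroblast and T or NK cell markers in the same sub-cluster, had Igf2 unevenly. Its libraries held 1, 27, 0 and 3 Igf2 UMIs in 11, 13, 11 and 14 cells, and 16 of the 27 in the female Tg2576 library came from a single cell. The level of this cluster therefore rests on a few cells, and its range (0 to 2736 CPM) overlapped that of choroid plexus cells. No fibroblast type was named in the main setting. One of 49 cells was named with all variable genes, and one of 31 cells in cells of 500 genes or more. Oligodendrocytes had 1 Igf2 UMI in 353 cells and neuroblasts or progenitors 0. The log2 difference in Igf2 of microglia against astrocytes was called by a small margin (-1.81, SE 0.81, adjusted p = 0.041, edgeR), but astrocytes had 8 UMIs in 3 cells, and without the male Tg2576 library the difference was -0.15 (adjusted p = 0.926).

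Of the receptors, Igf1r was highest in endothelial cells. Endothelial cells held 313, 390, 279 and 272 UMIs in the female wild-type, female Tg2576, male wild-type and male Tg2576 libraries, or 1235, 937, 943 and 825 CPM, a mean of 985 ± 175 CPM (SD, n = 4 libraries). The female wild-type library was the highest and the male Tg2576 library the lowest. The share of endothelial cells with a UMI was 70.0%, 55.3%, 64.1% and 44.7% in the same order, and 51.9%, 38.5%, 37.6% and 33.2% at 500 UMIs in every cell. Mural cells came next at 368, 267, 420 and 289 CPM, and no library of them reached the endothelial range. Below, the ranges ran into each other, from 112 to 318 CPM in the cluster led by Ms4a4b and H2-Ab1, through 79.0 to 466 in neurons, 90.2 to 200 in neuroblasts or progenitors and 42.2 to 97.1 in oligodendrocytes, to 51.7 to 95.3 in microglia and 41.0 to 62.3 in astrocytes.

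The tests between cell types followed that order. Against endothelial cells, the log2 difference in Igf1r was -3.58 for microglia (SE 0.18, adjusted p = 2.85e-61), -3.84 for astrocytes (SE 0.21, adjusted p = 2.93e-53) and -3.61 for oligodendrocytes (SE 0.23, adjusted p = 1.41e-43), all with edgeR and in 4 of 4 libraries. Microglia, astrocytes and oligodendrocytes could not be told apart by Igf1r. Microglia differed from astrocytes by 0.26 (SE 0.27, adjusted p = 0.402, edgeR) and from oligodendrocytes by 0.03 (SE 0.29, adjusted p = 0.944, edgeR). With a UMI in 7.85% of microglia, 6.19% of astrocytes and 5.50% of choroid plexus cells, these shares were alike, and expression was not separated from free RNA at this level, against 56.0% of endothelial cells. Within microglia, the cluster led by Ccl4 and the cluster led by Gm16228 and P2ry12 differed by -0.29 (SE 0.27, adjusted p = 0.632, edgeR).

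Mural cells were not uniform for Igf1r. Split further into 4 sub-clusters, a step chosen after the values were seen, they held 3 Igf1r UMIs in 82 cells with the pericyte genes Kcnj8 and Vtn, 13 in 31 cells with the smooth muscle genes Acta2 and Myh11, 23 in 26 cells and 48 in 24 cells. The last group stood at 804 ± 228 CPM of Igf1r (SD, n = 4 libraries), close to endothelial cells. It also carried the endothelial genes Cldn5 at 1885 and Flt1 at 4459 CPM on average, beside Vtn at 3101 CPM. In the group of 82 cells, Igf1r was at 37.5 and Vtn at 8183 CPM, and 3 cells had a Cldn5 UMI. The group of 26 cells had 1686 CPM of Cldn5 and 2486 CPM of Flt1 as well, but 209 CPM of Igf1r, near the 192 CPM of the smooth muscle group, so Igf1r did not follow Cldn5 through all 4 sub-clusters. The part of endothelial transcripts in the mural Igf1r level was not tested. The 2 sub-clusters above 1000 CPM of Cldn5 were also left out, a step likewise chosen after the values were seen, and 113 mural cells remained. Their Igf1r differed from that of endothelial cells by -3.06 on the log2 scale, against -1.66 (SE 0.21, adjusted p = 7.3e-13) with all of them, both in edgeR. The sub-clusters left out held 48 and 23 of the 87 mural Igf1r UMIs, so a larger difference was bound to follow.

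**Figure D4:**
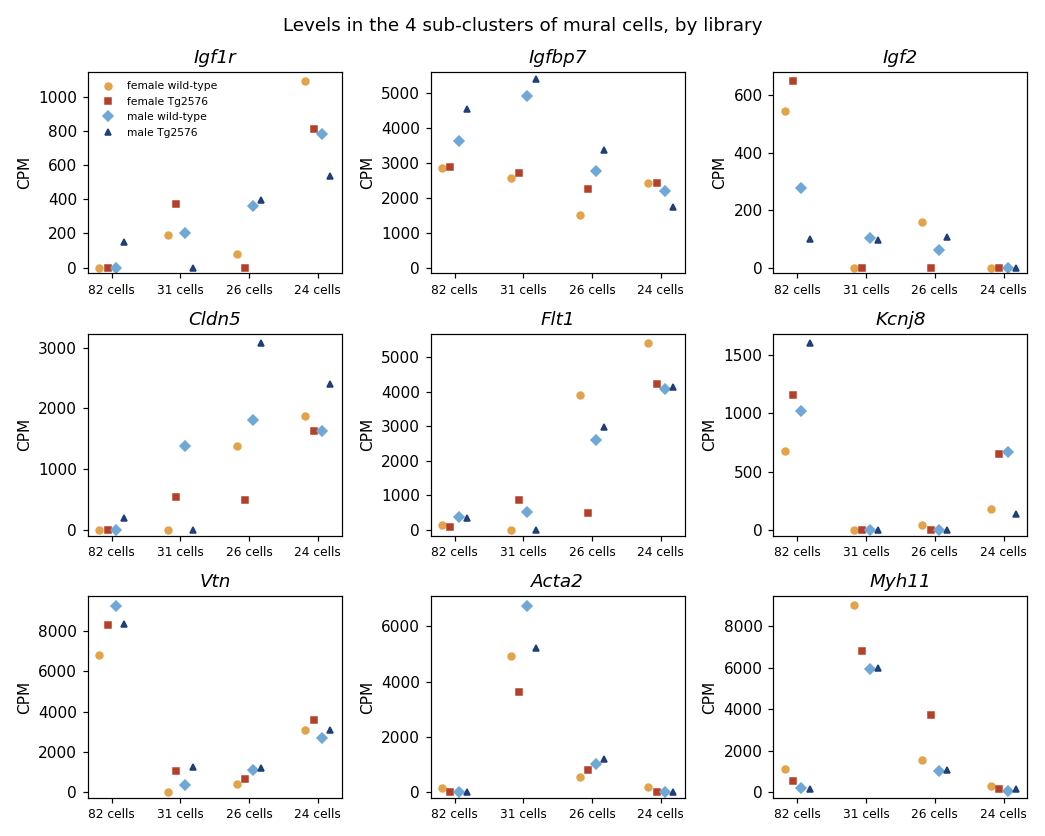
Level (y axis, CPM) of 3 members and of 6 endothelial, pericyte and smooth muscle marker genes in the 4 sub-clusters of mural cells (x axis, named by their number of cells), 1 point per library. Igf1r, Cldn5 and Flt1 are low in the sub-cluster of 82 cells and highest on average in that of 24 cells, while Igfbp7 is at 1497 CPM or more in every sub-cluster and library.

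Igf2r was sparse everywhere. Kept cells had 20, 11, 11 and 19 UMIs in the female wild-type, female Tg2576, male wild-type and male Tg2576 libraries. The highest median was that of mural cells (41.9 CPM, 10 UMIs), followed by choroid plexus cells (17.9 CPM, 6 UMIs), astrocytes (15.6 CPM, 16 UMIs), oligodendrocytes (11.9 CPM, 9 UMIs) and endothelial cells (8.32 CPM, 12 UMIs). Each neighbouring pair of this order overlapped between libraries, and microglia had 2 UMIs in 1860 cells. Igf2r did not pass the filter in any cell type.

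Among the binding proteins, Igfbp2, which is abundant in cerebrospinal fluid, was high in choroid plexus cells and at a middle level in astrocytes. Choroid plexus cells held 44, 31, 219 and 94 UMIs in the female wild-type, female Tg2576, male wild-type and male Tg2576 libraries, or 1522, 2277, 2287 and 1402 CPM. Astrocytes stood at 451, 317, 439 and 357 CPM, below the choroid plexus range in every library. A UMI was seen in 74.3% of choroid plexus cells and 25.5% of astrocytes.

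Astrocytes exceeded endothelial cells by 6.75 (SE 0.35, adjusted p = 1.22e-59) and oligodendrocytes by 5.49 (SE 0.37, adjusted p = 5.14e-39) on the log2 scale in edgeR, and microglia differed from astrocytes by -6.33 (SE 0.29, adjusted p = 4.17e-69). These differences were present in 4 of 4 libraries. The remaining types had few UMIs, among them 11 in microglia, 6 in oligodendrocytes, 5 in endothelial cells and 4 in mural cells. For every 1000 Ttr UMIs, microglia had 8.89 Igfbp2 UMIs, endothelial cells 9.09 and mural cells 8.55, beside 8.53 in choroid plexus cells. Other types lay apart, with 21.7 in oligodendrocytes, 26.1 in OPCs, 19.6 in neurons, 17.1 in neuroblasts or progenitors and 182 in ependymal cells. Macrophages and the cluster led by Npy and Fabp7 had 0. The cluster led by Ms4a4b and H2-Ab1 had 462 and astrocytes 746. The mural value rests on single cells, since its 4 Igfbp2 UMIs were in 1 cell and most of its Ttr UMIs in 1 cell too, and the part of free RNA in these counts was not tested.

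Igfbp3, the main carrier of insulin-like growth factors in blood, was scarce. OPCs held 1, 0, 4 and 5 UMIs and mural cells 5, 0, 2 and 2 in the female wild-type, female Tg2576, male wild-type and male Tg2576 libraries. Endothelial cells held 2, 15, 2 and 3, with the female Tg2576 library above the others. Of those 15 UMIs, 8 came from a single cell, so the value rests on few cells. Microglia had 0 UMIs in 1860 cells, which allows up to 5.63 CPM (3 UMIs) in the male wild-type library. The gene was not tested.

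Igfbp4 was the binding protein of microglia by number, though not by level. Microglia held 16, 19, 16 and 21 UMIs, or 23.8, 32.6, 30.0 and 35.0 CPM in the female wild-type, female Tg2576, male wild-type and male Tg2576 libraries, which was 55.8% of all kept UMIs of the gene. The 4 values lay close together, and only 3.44% of microglia had a UMI. Macrophages were higher at 139 to 630 CPM from 11 UMIs in 33 cells, and the cluster led by Npy and Fabp7 had 13 UMIs in the female and 9 in the male Tg2576 library. Neurons, oligodendrocytes, neuroblasts or progenitors, choroid plexus and ependymal cells were at 0. Between the microglia clusters led by Ccl4 and by Gm16228, Igfbp4 differed by -0.27 (SE 0.43, adjusted p = 0.82, edgeR), and of the 2 members tested there 0 were called, where 8.84% of 4843 genes were called; the unadjusted p was 0.539 for Igfbp4 and 0.283 for Igf1r.

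Igfbp5, the most conserved of the binding proteins, was spread over unrelated cells. Astrocytes held 46, 28, 33 and 48 UMIs in the female wild-type, female Tg2576, male wild-type and male Tg2576 libraries, or 145, 145, 110 and 149 CPM. These 4 values lay close together, but with each cell thinned to 500 UMIs they were 62.5, 144, 140 and 201 CPM, with the female wild-type library lowest. Neuroblasts or progenitors stood higher at 355, 430, 485 and 158 CPM, with the male Tg2576 library apart from the other 3. The cluster led by Npy and Fabp7 had 85 UMIs in 21 female and 55 in 29 male Tg2576 cells (2084 and 1152 CPM) and 0 in the 2 female wild-type cells. It held 30.1% of the kept Igfbp5 UMIs in 52 of 4835 cells.

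Single cells set other Igfbp5 values. The 21 UMIs of choroid plexus cells in the male Tg2576 library were all in 1 cell, and the 6 UMIs of ependymal cells in the female wild-type library came from the only such cell there. In the tests, astrocytes exceeded endothelial cells by 5.04 (SE 0.44, adjusted p = 4.53e-26) and oligodendrocytes by 3.27 (SE 0.43, adjusted p = 1.25e-12), and microglia differed from astrocytes by -4.33 (SE 0.36, adjusted p = 1.17e-28), all on the log2 scale in edgeR. Mural against endothelial cells gave 2.31 (SE 0.89, adjusted p = 0.0644, edgeR), from 7 and 6 UMIs.

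Igfbp7 was the member with the most UMIs, 2950 in kept cells. Mural cells held 126, 120, 240 and 289 UMIs in the female wild-type, female Tg2576, male wild-type and male Tg2576 libraries, or 2108, 2665, 3250 and 3799 CPM, a mean of 2955 ± 731 (SD, n = 4 libraries). Endothelial cells stood at 1132, 1457, 1781 and 1874 CPM, and their range lay wholly below that of mural cells. In both types the order of the 4 libraries was the same. A UMI was seen in 85.3% of mural and 67.1% of endothelial cells, against 1.56% of microglia.

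Mural cells exceeded endothelial cells by 0.78 on the log2 scale (SE 0.17, adjusted p = 7.14e-05, edgeR), in 4 of 4 libraries, while DESeq2 gave 0.76 with an adjusted p of 0.0831. Unlike Igf1r, Igfbp7 was higher on average in the pericyte (3478 CPM) and smooth muscle (3901 CPM) sub-clusters than in those carrying Cldn5 (2472 and 2196 CPM). Against endothelial cells, the log2 difference was -7.21 for astrocytes (SE 0.31, adjusted p = 5.43e-77), -6.64 for microglia (SE 0.25, adjusted p = 4.48e-91) and -5.72 for oligodendrocytes (SE 0.29, adjusted p = 8.06e-62) in edgeR. Choroid plexus cells had 138 to 239 CPM, above the 7.03 to 46.6 CPM of oligodendrocytes in every library.

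Over all comparisons between cell types, 5 members passed the filter (Igf2, Igf1r, Igfbp2, Igfbp5 and Igfbp7), and Igf1, Igf2r, Igfbp3 and Igfbp4 did not. Of the 5, 3 were called between microglia and astrocytes (62.5% of the 6416 genes tested), 0 between microglia and oligodendrocytes (55.5%), 3 between microglia and endothelial cells (52.4%), 2 between astrocytes and oligodendrocytes (39.5%), 4 between astrocytes and endothelial cells (54.9%), 3 between oligodendrocytes and endothelial cells (45.7%) and 3 between mural and endothelial cells (14.6%). With 5 genes, these counts are not read as differing from the background. Between microglia and oligodendrocytes the edgeR unadjusted p of the 5 members ran from 0.0787 for Igfbp7 to 0.917 for Igf1r. Igf2 in oligodendrocytes differed from that in endothelial cells by -2.72 on the log2 scale (SE 1.03, adjusted p = 0.0206, edgeR), from 1 and 19 UMIs, and Igf2 in microglia by -2.56 (SE 0.67, adjusted p = 0.000377, edgeR). The former call was lost when the female wild-type, female Tg2576 or male wild-type library was left out (adjusted p = 0.0703, 0.151 and 0.0701).

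The genes whose levels over 7 cell types and 4 libraries ran most like those of a member differed from member to member. Across these 28 points, Pearson's r of log2(CPM + 10) was highest with Igf1r for Slc39a10 (0.92), Nes (0.91) and St8sia4 (0.91), all highest in endothelial cells. With Igfbp7 it was highest for Uaca (0.95), Tinagl1 (0.94) and S100a11 (0.93). Fam81a (0.97), Msx1 (0.96) and Pcolce (0.95) ran with Igf2, and Trpm3 (0.97), Ppp1r1b (0.96) and Mapk4 (0.95) with Igfbp2, all highest in choroid plexus cells. P3h2 (0.85), Trpv2 (0.85) and Arhgdib (0.82) ran with Igfbp4, and Astn1 (0.88), Pax6 (0.87) and Spon1 (0.83) with Igfbp5. These were the first 3 of 7777 genes for each member, and the points share libraries and depth.

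The comparison of Tg2576 with wild-type mice asked whether any of these levels depends on the amyloid precursor protein transgene. Within the 7 cell types with enough UMIs in every library, 6 members gave 13 tests over the 4 libraries with sex as a covariate. None was called: 0 of 13 tests passed with edgeR, where 0.26% of 24620 tests over all genes and types did, and 2 had an unadjusted p under 0.05, against 0 called and 0 under that unadjusted level with DESeq2. By type, edgeR called 0.0% of the genes tested in endothelial cells, 0.113% in astrocytes, 0.494% in microglia, 0.324% in oligodendrocytes, 0.273% in mural cells, 0.136% in choroid plexus cells and 0.604% in neuroblasts or progenitors. The fit left 1 residual degree of freedom, so it could see only large and uniform differences.

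The values nearest to a call were those of Igfbp2 in astrocytes and Igf1r in microglia. Igfbp2 in astrocytes was at 451 and 439 CPM in the wild-type and 317 and 357 CPM in the Tg2576 libraries, and the groups did not overlap. The difference was -0.44 on the log2 scale (SE 0.17, adjusted p = 0.523, edgeR), lower in Tg2576 in both sexes, but the female log2 ratio turned from -0.51 to 0.20 at a limit of 10% on mitochondrial UMIs. The share of astrocytes with an Igfbp2 UMI was 33.6% and 28.4% in wild-type and 16.5% and 22.5% in Tg2576 mice (female, then male), and 17.7% and 14.6% against 11.5% and 10.0% once each cell was thinned to 500 UMIs. Igf1r in microglia was at 95.3 and 67.5 CPM in wild-type and 63.5 and 51.7 CPM in Tg2576 mice, a difference of -0.54 (SE 0.26, adjusted p = 0.539, edgeR) from 31 to 64 UMIs per library. Igf1r in endothelial cells (-0.36, SE 0.17, adjusted p = 0.911) and in mural cells (-0.54, SE 0.43, adjusted p = 0.997) had the same sign, and in oligodendrocytes (0.70, SE 0.51, adjusted p = 0.8) and astrocytes (0.18, SE 0.39, adjusted p = 0.958) the opposite one, all in edgeR and none called.

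Igfbp7 was at 1457 and 1874 CPM in Tg2576 against 1132 and 1781 CPM in wild-type endothelial cells, which overlap. It differed by 0.15 there (SE 0.17, adjusted p = 0.937, edgeR) and by 0.25 in mural cells (SE 0.43, adjusted p = 0.997, edgeR). Igfbp4 in microglia differed by 0.29 (SE 0.38, adjusted p = 0.907), Igfbp5 in astrocytes by 0.18 (SE 0.26, adjusted p = 0.933) and in neuroblasts or progenitors by -0.61 (SE 0.46, adjusted p = 0.916), and Igfbp2 in choroid plexus cells by -0.12 (SE 0.40, adjusted p = 0.997), all in edgeR. These intervals are wide, and a missed threshold does not show equal levels.

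Within each sex there were 2 libraries and no test, only ratios with counting intervals. Of 30 ratios computed, 8 had an interval that excluded 0, 4 above and 4 below, and these intervals leave out the spread between mice. In females, Igf1r in endothelial cells had a log2 ratio, Tg2576 over wild-type, of -0.40 (interval -0.62 to -0.18), and in males -0.19 (-0.44 to 0.05). Igfbp7 in endothelial cells went the other way in females, 0.36 (0.16 to 0.57), with 0.07 (-0.10 to 0.24) in males. The endothelial cells included a cluster of 61 cells led by Gbp8 and Gbp4, unevenly spread over the libraries. It had 0 female wild-type, 40 female Tg2576, 19 male wild-type and 2 male Tg2576 cells, and its part in these ratios was not tested. Igfbp2 in astrocytes was at -0.51 (-0.97 to -0.07) in females and -0.30 (-0.67 to 0.08) in males. These 3 genes had the same sign in both sexes, with a smaller value in males; the difference between the sexes was not tested.

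Opposite signs, with an interval that excluded 0 in males, were seen for a pair of genes in small cell groups. Igf1r in astrocytes also had opposite signs, 0.60 in females and -0.03 in males, but both intervals included 0. Igfbp2 in choroid plexus cells had a log2 ratio of 0.58 (-0.13 to 1.28) in females, from 15 wild-type and 11 Tg2576 cells, and -0.71 (-1.07 to -0.35) in males. Igfbp5 in neuroblasts or progenitors had 0.28 (-0.74 to 1.32) in females and -1.62 (-3.02 to -0.45) in males, from 41 and 7 UMIs. This group joined 83 cells led by Dlx6os1 and Dlx1 with 29 cells led by Top2a and Mki67. The latter were 4 female wild-type, 6 female Tg2576, 13 male wild-type and 6 male Tg2576 cells. The part of this make-up in the Igfbp5 ratios was not tested. The last 3 intervals above 0 belonged to values set by few cells: Igf2 in the cluster led by Ms4a4b and H2-Ab1 and Igfbp5 in the cluster led by Npy and Fabp7 in females, and the single choroid plexus cell with Igfbp5 in males.

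**Figure D5:**
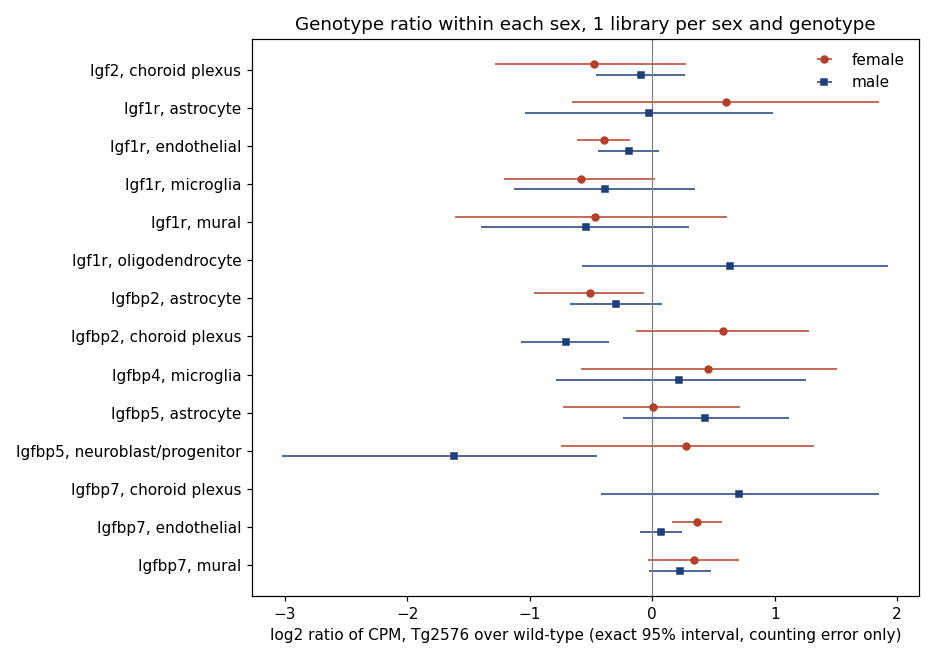
Ratio of Tg2576 to wild-type CPM on the log2 scale (x axis) of member genes in named cell types (y axis) for females and males, with exact 95% intervals for counting error, where the libraries of a sex held at least 20 UMIs together. The female interval of Igf1r in endothelial cells lies below 0 and that of Igfbp7 above it, and the values for Igfbp2 in choroid plexus cells have opposite signs in the sexes.

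Male and female mice were compared in the same fits. The libraries of the sexes also differed in mitochondrial content. Over all barcodes, mitochondrial genes made up 15.4% and 17.2% of female UMIs against 10.9% and 7.87% of male UMIs (wild-type, then Tg2576). Of barcodes with 200 to 7000 genes, a limit of 5% left 18.1% and 14.5% in females and 33.8% and 55.6% in males. The part of this difference in the sex comparisons was not tested. Of 13 tests of members, 0 were called by edgeR, where 2.71% of 24620 tests over all genes and types were called, and 1 had an unadjusted p under 0.05, while DESeq2 called 0 with 0 under that unadjusted level. By type, edgeR called 0.0903% of the genes tested for sex in endothelial cells, 2.13% in astrocytes, 5.99% in microglia, 2.76% in oligodendrocytes, 0.684% in mural cells, 0.407% in choroid plexus cells and 0.302% in neuroblasts or progenitors. The member with an unadjusted p under 0.05 was Igfbp7 in endothelial cells, higher in males by 0.42 (SE 0.17, adjusted p = 0.531, edgeR), with males at 1781 and 1874 and females at 1132 and 1457 CPM. Igf1r in endothelial cells was at -0.37 (SE 0.17, adjusted p = 0.562, edgeR) and in microglia at -0.42 (SE 0.26, adjusted p = 0.397, edgeR), males against females.

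Other genes of the pathway were followed as a list of 46, of which 44 were in the tables. Between microglia and endothelial cells, 7 of 16 tested list genes were higher and 5 lower in microglia (52.4% of all genes called), with a median log2 difference of 0.39 against -0.0038 over all genes. Between mural and endothelial cells, 4 were higher and 3 lower in mural cells (14.6% of all genes called). Among further binding proteins and partners, Igfbpl1 was highest in neuroblasts or progenitors (355 to 834 CPM), among whose leading genes it was, and Igfbp6 in choroid plexus cells (0 to 89.5 CPM). Insr, the insulin receptor, was highest in endothelial cells (106 to 225 CPM), and Ins2, an insulin gene, had 29.8 to 157 CPM in choroid plexus cells.

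Of 6 genes of lysosomal sorting, 3 had their highest mean in oligodendrocytes. Among them were M6pr, the small mannose 6-phosphate receptor, at 168 to 245 CPM, and Gnptab, an enzyme that makes the sorting tag, at 45.7 to 126 CPM. The M6pr ranges of microglia (180 to 237 CPM) and mural cells (167 to 230 CPM) overlapped that of oligodendrocytes. Of the signal adaptors, Grb14, an inhibitor of insulin receptor signalling, was highest in oligodendrocytes (547 to 942 CPM). Pik3r1, a regulatory subunit of phosphoinositide 3-kinase, had its highest mean in microglia (245 to 408 CPM), overlapping oligodendrocytes at 268 to 393 CPM. Htra1, a secreted protease that cuts binding proteins, stood at 1888 to 2113 CPM in astrocytes. Adamts1, also a secreted protease, stood at 600 to 2526 CPM in mural cells (median 883). Microglia lay at 656 to 1157 CPM (median 1084). The highest mural value was that of the female wild-type library, where 69 of 151 UMIs were in 1 cell. Among RNA-binding and imprinted genes, Mest had 73.5 to 125 CPM in choroid plexus cells, and Igf2bp2 had 7.50 to 10.3 CPM in microglia.

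For genotype, 63 tests of list genes in 6 cell types gave 0 calls with edgeR, where 0.0% to 0.604% of all genes of a type were called. An unadjusted p under 0.05 was found in 9 of the 63. The share of all genes under that unadjusted level is not given here, so the count of 9 is not read as a result. For sex, 3 of 63 were called over the 6 types. All 3 were among the 20 list genes tested in microglia, where 5.99% of all genes were called. With so few genes, this count is not read as differing from the background. Of the 3 genes, 2 are described here. The count of 3 fell to 0 at limits of 10% and 5% on mitochondrial UMIs and with DESeq2, and to 1 in cells of 500 genes or more. Adamts1 stood at 1046 and 656 CPM in females and 1157 and 1123 CPM in males (0.44, SE 0.14, adjusted p = 0.0412, edgeR). Htra3, a serine protease, had 3 and 3 UMIs in females and 14 and 11 in males (2.16, SE 0.65, adjusted p = 0.0231, edgeR). In both of these genes the female and male values did not overlap. For Adamts1, however, the counting interval of female wild-type microglia (970 to 1126 CPM) overlapped those of male wild-type (1068 to 1253) and male Tg2576 (1040 to 1211). Only female Tg2576 lay apart. That library had 234 microglia in the cluster led by Ccl4 and 280 in that led by Gm16228, against 308 and 152 in female wild-type. The part of this make-up in the sex difference was not tested.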

How the data were processed

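Single-cell RNA from the cortex of Tg2576 and wild-type mice was measured in 4 Drop-seq libraries, 1 per sex and genotype. The authors deposited raw UMI counts, with a row per gene symbol and a column for each of 3000 cell barcodes per library, from a Drop-seq pipeline. The submitters' processing notes name mm10 and Seurat 3.1.4. The aligner, the annotation and the strand used in counting are not given in the sources used here, so overlapping and antisense genes could not be separated.

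Barcodes with 200 to 7000 genes and at most 20% mitochondrial UMIs were kept. The methods of the study give a limit of 5%, which left 14.5% to 55.6% of barcodes with 200 to 7000 genes and was tried as an alternative. Counts were transformed with sctransform 0.4.2 and clustered in Seurat 5.3.0 (R 4.3.3) on 2500 variable genes, without the members and the pathway list, with 19 principal components and a resolution of 0.5. A cluster was named from at least 3 raised markers of a list. A cluster holding several lists' markers was split further by a 75% rule, chosen after the data were seen, as were the mural sub-clusters. No doublets were removed in the main setting, and leaving out the 92 that Scrublet (scanpy 1.11.5) called was an alternative.

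UMIs were summed per library and type. Types with at least 50 cells and 10000 UMIs in every library were tested with the two-sided quasi-likelihood test of edgeR 4.0.16 (filter by filterByExpr, scaling by TMM, Benjamini-Hochberg adjustment over all genes of a comparison, threshold 0.05). Cell types were compared with the library as a block, and genotypes and sexes in a fit with both terms, which leaves 1 residual degree of freedom. With pooled mice, p-values measure only the spread between these libraries. Levels have exact Poisson, ratios exact conditional binomial 95% intervals (scipy 1.17.1). On simulated counts with 200 changed genes, the genotype test in endothelial cells, over 5526 genes, recovered 18.4% of changes of 1 and 85.9% of changes of 2 on the log2 scale. In astrocytes, over 5472 genes, it recovered 2.04% and 48.5%.

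The members are named throughout. Of the pathway list, genes called for genotype or sex and the 2 highest of each role are named, and for each member with at least 50 UMIs in a tested type the 3 genes of most like pattern among those with a mean of at least 50 CPM in a tested type. The members and lists were chosen with earlier results of these data known.

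Alternatives tried were a mitochondrial limit of 5%, of 10% or none, cells of 500 genes or more, a resolution of 1, all variable genes, no doublets, totals without mitochondrial genes and Malat1, DESeq2 1.42.0 or its size factors, no filter, no block or sex term, thinning to 500 UMIs, and leaving out each library. Values of some genes of the pathway and marker lists are not reported here.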

Additional observations from a re-analysis of the deposited data

Results flagged for a closer look

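The genotype ratio of a pair of genes had opposite signs in the sexes and an interval that excluded 0 in males. This difference between the sexes was not tested, with a single library behind each genotype of a sex. Igfbp2 in choroid plexus cells had a log2 ratio, Tg2576 over wild-type, of 0.581 in females and -0.7059 in males. Igfbp5 in neuroblasts or progenitors had 0.2776 in females and -1.6185 in males. The female choroid plexus values came from 15 wild-type and 11 Tg2576 cells.

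Barcodes that had fewer than 200 genes or over 20% mitochondrial UMIs are outside the comparisons, and in them some members stood higher in a Tg2576 library than in the wild-type library of the same sex. In females, Igfbp5 stood at 451.0 CPM against 114.0 (313 and 56 UMIs), Igf1 at 51.9 against 2.03 (36 UMIs and 1 UMI), Igfbp4 at 30.3 against 10.2 and Igfbp7 at 169.0 against 93.5. In males, Igf2 stood at 112.0 CPM against 32.6 (28 and 9 UMIs) and Igfbp7 at 236.0 against 134.0. Igf2 in females ran the other way, at 80.7 CPM in Tg2576 against 183.0 in wild-type barcodes, as did Igfbp2 at 118.0 against 333.0. In the main setting these barcodes were given no cell type. Clustering without a mitochondrial limit put 62 female Tg2576 cells in the cluster led by Npy and Fabp7, against 21 at the 20% limit. These cells held 248 Igfbp5 and 42 Igf1 UMIs, against 85 and 19. Without the limit, the female wild-type library had 5 such cells, with 6 Igfbp5 and 5 Igf1 UMIs. The part of this cluster in the differences above was not tested.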

How the results depend on the processing

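No paired analysis was possible because the labels carry no replicate numbers and each group is 1 library. With no mitochondrial limit, the sex test called 1 member (Igfbp5 in astrocytes) instead of 0. Sex calls in the pathway list fell from 3 to 0 at mitochondrial limits of 10% and 5%, to 1 in cells of 500 genes or more and to 0 with DESeq2, and its calls between cell types rose from 66 to 100 without the filter. Within-sex intervals that exclude 0 fell from 8 to 5 (10% limit), 3 (5% limit) and 2 (cells thinned to 500 UMIs). At the 5% limit, 4 of the 9 members kept the named type in which they were highest, and only microglia could be tested.

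Some values reversed. Without Scrublet doublets, Igfbp7 gave 1.31 for microglia against oligodendrocytes (adjusted p = 0.164, edgeR) and 0.0362 for astrocytes against oligodendrocytes (adjusted p = 0.995, edgeR), from -0.92 and -1.48, none of them called. The ratio of Igfbp2 in female astrocytes was 0.20 at the 10% limit, and that in male choroid plexus cells 0.86 at the 5% limit. The causes were not tested.

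Of 247 values of called differences between cell types under the alternatives, 237 stayed called in the same direction, 10 were no longer called and 0 reversed; the 10 were Igf2 between microglia and astrocytes, Igf2 between oligodendrocytes and endothelial cells, and Igfbp7 between mural and endothelial cells. Calls over all genes and types fell from 64 to 2 (10% limit), 0 (5% limit), 30 (no doublets), 2 (DESeq2) and 4 (no sex term) for genotype, with 24 to 54 when a library was left out (36 without female Tg2576, 32 without male wild-type, 24 without male Tg2576, in fits that have no sex term), and for sex from 668 to 174, 107 and 37 (10% limit, 5% limit, DESeq2). Macrophages against microglia and the endothelial clusters were not run, since libraries had too few UMIs. Depth limits Igf1, Igf2r, Igfbp3 and Igfbp4 most.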
